A study of Homo sapiens with 24 samples.

Results

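The integrated stress response and amino acid genes described here are 42 human genes chosen by name, of 35579 genes with summed transcript values in the deposited tables. They comprise 7 transcription factors, 8 feedback regulators and stress effectors, 10 enzymes of amino acid and one-carbon synthesis, 11 cytosolic tRNA synthetases and 6 amino acid transporters. For each gene the abundances of its annotated transcripts were summed, in TPM (a transcript's share of the library's RNA, corrected for transcript length). All 42 genes were found, and all 42 passed the filter of a mean of at least 1 TPM in both tables.

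In the integrated stress response, kinases that sense amino acid shortage, unfolded proteins, viral RNA or haem shortage phosphorylate the translation factor eIF2, which slows protein synthesis in general and favours translation of the transcription factor ATF4. ATF4, with C/EBP partners, activates genes for amino acid synthesis, amino acid uptake and tRNA charging, and also stress factors such as DDIT3 (CHOP) and TRIB3. Because ATF4 is controlled largely through its translation, its mRNA need not follow the mRNA of its targets. Rapidly growing tumour lines commonly keep part of this programme active.

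The study measured polyadenylated RNA of A549 cells, a human lung adenocarcinoma line, in 24 libraries; every group is labelled as wild-type genotype. In the whole-cell experiment, 4 groups of 3 libraries held cells with a non-targeting siRNA pool, cells with an siRNA pool against the kinase TAOK2, cells with DMSO, and cells with compound 2, which the labels call a TAOK2 kinase inhibitor. Each of the 3 libraries of a group belongs to one of the labelled batches A, B and C, and all 12 titles carry the word mock, which is not explained in the sources used here. In the fractionation experiment, cells with the non-targeting or the TAOK2 siRNA pool gave nuclear, cytoplasmic and total RNA, in 6 groups of 2 libraries from the labelled batches 1 and 2. The siRNAs were used at 30 nM by reverse transfection; the sources used here do not state the dose or duration of compound 2, nor whether cells with DMSO or compound 2 were also transfected. Nothing in the labels says that libraries of a group came from separate cultures, so p-values measure the spread between these libraries, which may be technical. All results are for this 1 cell line, and siRNA lowers TAOK2 without removing it.

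Every library sums to 1000000 TPM, so depth is unknown, and a fall of one gene's TPM is a fall of its share. Fewer transcripts in each cell and fewer cells carrying them cannot be told apart in such bulk samples. In whole cells, TAOK2 was at 40.3, 38.2 and 34.3 TPM with control siRNA and at 10.6, 12.5 and 8.56 TPM with TAOK2 siRNA, a fall by 1.75 on the log2 scale (SE 0.15, limma adjusted p = 2.32e-05). In the total RNA of the fractionation experiment, where TAOK2 was low, the values were 9.70 and 5.01 TPM with control siRNA and 3.67 and 2.99 TPM with TAOK2 siRNA. Without a batch term limma called 0 of 13751 genes lower in total, nuclear or cytoplasmic RNA, so TAOK2 itself was not called lower there. Replicates correlated across genes at r = 0.984 to 0.997 in whole cells and 0.928 to 0.970 in the fractionation experiment. Of 11 lung epithelial markers, 6 averaged at least 1 TPM in control whole cells; the keratins KRT7, KRT8 and KRT18 were abundant, whereas the lung factor NKX2-1 averaged 0.08 TPM and the surfactant gene SFTPA1 was at 0. Leukocyte and fibroblast marker sums were at most 32.6 TPM in whole cells, and the endothelial sum was at most 1.28 TPM.

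ATF4 binds a composite C/EBP-ATF element whose core can be written TGATGNAA. Of the members, 8 carry that core wholly before their transcription start in the RefSeq promoter windows of GRCh38.p14 (250 bases before to 50 after the start), and these stretches are shown because they are the promoter feature most directly tied to ATF4. They are written in the direction of the gene, with the core in capitals; where it lies on the other strand the capitals show its reverse complement.
AARS1 (chr16:70289666-70289713, minus strand): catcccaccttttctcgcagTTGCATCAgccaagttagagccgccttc
ASNS (chr7:97872449-97872496, minus strand): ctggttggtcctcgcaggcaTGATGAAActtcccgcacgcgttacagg
ATF3 (chr1:212565196-212565243, plus strand): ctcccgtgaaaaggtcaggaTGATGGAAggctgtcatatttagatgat
CEBPG (chr19:33374051-33374098, plus strand): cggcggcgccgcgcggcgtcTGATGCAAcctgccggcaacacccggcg
CHAC1 (chr15:40953242-40953289, plus strand): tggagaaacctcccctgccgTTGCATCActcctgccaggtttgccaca
GARS1 (chr7:30594825-30594872, plus strand): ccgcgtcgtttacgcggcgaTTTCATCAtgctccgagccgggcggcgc
IARS1 (chr9:92293698-92293730, minus strand): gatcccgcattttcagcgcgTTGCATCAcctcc
SLC1A5 (chr19:46784884-46784931, minus strand): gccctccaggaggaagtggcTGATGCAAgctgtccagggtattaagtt

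The core started between 13 bases (IARS1) and 209 bases (CHAC1) before the start site. In 6 more members, the synthetases CARS1, MARS1, NARS1 and TARS1 and the transporters SLC1A4 and SLC3A2, it lay at or just after the start. RefSeq windows were matched for 36 of the 42 members, and 14 of these (38.9%) held the core on either strand, against 4.46% of the 27305 genes in the promoter table. Counted by window, it was 14 of 59 (23.7%) for the members and 1270 of 35116 (3.62%) for all windows of that length. Matches were concentrated in the synthetases, with 7 of 10, and the transporters, with 3 of 5, against 1 of 7 synthesis enzymes and 1 of 8 feedback genes. A match is a description of these letters and not evidence of binding. The 14 members with a match had a median log2 change of -0.78 with compound 2 and -0.21 with TAOK2 siRNA, and the 22 without one had -0.93 and -0.13.

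With TAOK2 siRNA, whole cells had less RNA of a subset of these genes, mostly synthetases, synthesis enzymes and stress factors, and the falls were modest. Of the 42 members, 13 fell and 1 rose (limma on log2(TPM + 1), 13106 genes tested, adjusted p under 0.05), while 22.2% of all genes tested passed, 14.4% lower and 7.78% higher. The member median was -0.20 against -0.05 for all genes tested. Between batches the member median was -0.23 in A, -0.22 in B and -0.18 in C, and 28 members were lower in every batch, as were 40.8% of all genes. Without regard to the test, 21 members had every TAOK2 siRNA library below every control library, and 4 had every one above. For control siRNA against DMSO these counts were 18 and 0. The share of all genes separated in this way is not given here, so neither count is read as particular to the members.

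**Figure D1:**
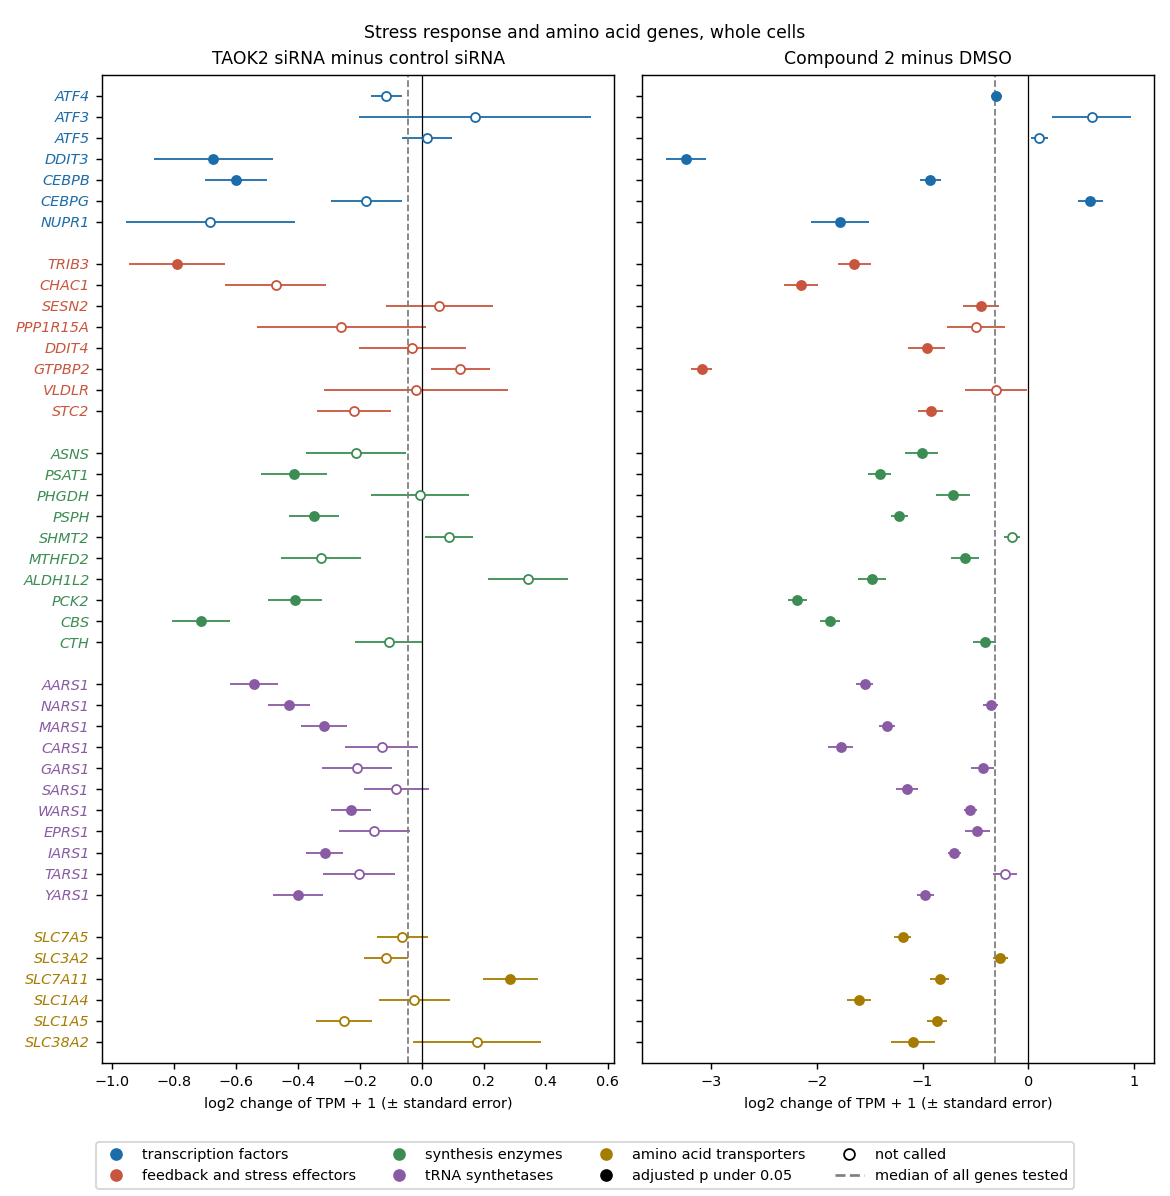
Log2 change (x axis, on the log2(TPM + 1) scale) of each of the 42 members in whole cells, with TAOK2 siRNA against control siRNA and with compound 2 against DMSO; points are limma estimates with bars of 1 SE, filled where the adjusted p is under 0.05, and the dashed line is the median of all genes tested. With TAOK2 siRNA 14 members are filled and lie between -0.79 and 0.29; with compound 2, 36 are filled and reach -3.24, and 7 of the falls turn positive when library medians are set equal.

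Among the transcription factors, DDIT3 and CEBPB fell with TAOK2 siRNA and ATF4 itself did not pass. ATF4 (ENSG00000128272, chromosome 22, 39519695 to 39522685, plus strand, GRCh38) was at 441, 453 and 455 TPM with control siRNA and at 416, 419 and 411 TPM with TAOK2 siRNA. Every TAOK2 siRNA library was below every control library, but the difference of -0.11 (SE 0.05) had a limma adjusted p of 0.13. DDIT3 (ENSG00000175197, chromosome 12, 57516588 to 57521737, minus strand), the pro-apoptotic C/EBP family member CHOP, was at 126, 130 and 139 TPM with control siRNA and 84.3, 78.2 and 84.4 TPM with TAOK2 siRNA. The groups did not overlap, and the change was -0.67 (SE 0.19, adjusted p = 0.029). CEBPB, another dimer partner of ATF4, was at 168, 148 and 161 TPM against 110, 95.2 and 109 TPM, again without overlap, and changed by -0.60 (SE 0.10, adjusted p = 0.0017). NUPR1, a small stress-induced nuclear protein, was at 36.0, 37.4 and 16.5 TPM with control siRNA and 21.5, 17.3 and 13.6 TPM with TAOK2 siRNA. These groups overlapped because the control library of batch C was low; the change of -0.68 (SE 0.27) had an adjusted p of 0.099, and of 0.0077 with batch as a block. Without that control library it was -1.05 (adjusted p = 0.0035). ATF3, an immediate stress factor, was at 47.6, 44.6 and 48.2 TPM against 52.3, 52.3 and 54.0 TPM, a difference of 0.17 (adjusted p = 0.78, and 0.040 when only these 6 libraries were fitted). Its TAOK2 siRNA libraries were all higher than its control libraries, unlike those of the other named factors. CEBPG and ATF5 had differences of -0.18 and 0.02 and did not pass.

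Of the 8 feedback regulators and stress effectors, 1 fell with TAOK2 siRNA. TRIB3 (ENSG00000101255, chromosome 20, 362835 to 397559, plus strand), a pseudokinase that binds and restrains ATF4, was at 321, 303 and 299 TPM with control siRNA and 193, 144 and 200 TPM with TAOK2 siRNA. The groups were far apart, with the batch B library lowest, and the change of -0.79 (SE 0.16, adjusted p = 0.0047) was the largest fall among the 42 genes. CHAC1 (ENSG00000128965, chromosome 15, 40952962 to 40956519, plus strand), which degrades glutathione, was at 62.1, 58.4 and 49.8 TPM against 46.5, 36.6 and 39.0 TPM. Its groups did not overlap either, but the difference of -0.47 (SE 0.16) had an adjusted p of 0.057, of 0.033 with batch as a block and of 0.015 when only these 6 libraries were fitted. STC2, a secreted glycoprotein, was at 105, 104 and 112 TPM against 89.3, 90.6 and 95.8 TPM (difference -0.22, adjusted p = 0.21, and 0.017 when only these 6 libraries were fitted). GTPBP2, a GTPase of ribosome rescue, was at 34.7, 32.7 and 38.9 TPM against 37.4, 40.4 and 38.2 TPM, with overlapping groups. SESN2 and DDIT4, which restrain mTORC1, PPP1R15A, which directs a phosphatase to eIF2, and the lipoprotein receptor VLDLR had differences between -0.26 and 0.06 and did not pass.

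Among the synthesis enzymes, 4 of 10 fell with TAOK2 siRNA. CBS (ENSG00000160200, chromosome 21, 43053191 to 43076943, minus strand), the first enzyme of transsulfuration from homocysteine to cysteine, was at 49.5, 49.1 and 47.7 TPM with control siRNA and 31.9, 26.3 and 30.2 TPM with TAOK2 siRNA. The control libraries were tightly grouped and well above the others, and the change was -0.71 (SE 0.09, adjusted p = 0.00037). PCK2, the mitochondrial phosphoenolpyruvate carboxykinase, was at 41.2, 40.8 and 36.1 TPM against 32.4, 27.7 and 28.2 TPM and changed by -0.41 (SE 0.09, adjusted p = 0.006). The last step of serine synthesis, PSPH, was at 97.5, 94.6 and 92.1 TPM against 79.4, 69.0 and 74.4 TPM (-0.35, adjusted p = 0.0099). The step before it, PSAT1, changed by -0.41 (adjusted p = 0.016), but the first step, PHGDH, did not pass (-0.01, adjusted p = 0.99). ASNS (ENSG00000070669, chromosome 7, 97852118 to 97872542, minus strand), which makes asparagine and is a standard ATF4 target, was at 172, 186 and 190 TPM against 156, 156 and 161 TPM. Its groups did not overlap, yet the difference of -0.21 (SE 0.16) had an adjusted p of 0.38 when all 12 libraries shared the spread, and of 0.019 when only these 6 libraries were fitted. ALDH1L2, a mitochondrial folate enzyme, was higher in every TAOK2 siRNA library (9.15 to 11.5 TPM, against 7.74 to 8.18 TPM); the difference of 0.34 had an adjusted p of 0.079, and of 0.033 with batch as a block.

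All 11 tRNA synthetases had estimates below 0 with TAOK2 siRNA, and 6 fell. All 11 estimates were also below 0 for control siRNA against DMSO, where 0 were called. The synthetase median was -0.18 there and -0.23 with TAOK2 siRNA, so the shared direction is not particular to TAOK2 siRNA. AARS1 (ENSG00000090861, chromosome 16, 70252295 to 70289543, minus strand), which charges alanine tRNA, was at 393, 387 and 359 TPM with control siRNA and 276, 236 and 272 TPM with TAOK2 siRNA. The change was -0.54 (SE 0.08, adjusted p = 0.00063), with no overlap of the groups. NARS1, for asparagine, was at 192, 196 and 189 TPM against 136, 142 and 150 TPM (-0.43, SE 0.07, adjusted p = 0.0011). IARS1, for isoleucine, was at 226, 223 and 234 TPM against 184, 170 and 196 TPM (-0.31, SE 0.06, adjusted p = 0.0034). YARS1, MARS1 and WARS1, for tyrosine, methionine and tryptophan, changed by -0.40, -0.32 and -0.23. The other 5 synthetases had differences from -0.21 to -0.08 and did not pass.

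The transporters moved least with TAOK2 siRNA, and 1 of 6 passed, in the other direction. SLC7A11 (ENSG00000151012, chromosome 4, 138164097 to 138242349, minus strand), the cystine-glutamate exchanger, was at 96.9, 99.1 and 84.3 TPM with control siRNA and 112, 121 and 109 TPM with TAOK2 siRNA. All 3 TAOK2 siRNA libraries were above all control libraries, and the rise was 0.29 (SE 0.09, adjusted p = 0.036). SLC1A5, a glutamine transporter, was at 473, 449 and 412 TPM against 400, 346 and 376 TPM (-0.25, adjusted p = 0.069, 0.035 with batch as a block and 0.030 when only these 6 libraries were fitted). SLC3A2, the heavy chain that partners SLC7A5 and SLC7A11, was at 1171, 1084 and 1018 TPM against 1072, 978 and 970 TPM, with overlapping groups.

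Of the 14 members called with TAOK2 siRNA, 8 were called again when each of the 6 libraries was left out in turn (AARS1, CBS, CEBPB, IARS1, NARS1, PCK2, TRIB3 and YARS1). DDIT3 lost the call without any 1 of the 6 libraries, and WARS1 and SLC7A11 without any of several, with adjusted p up to 0.091, 0.11 and 0.14. PSAT1, PSPH and MARS1 lost it without 1 to 3 single libraries (the controls of batch A or B, or the TAOK2 siRNA library of batch B), with adjusted p up to 0.075. In limma without the filter on low values, DDIT3, WARS1 and SLC7A11 did not pass either (adjusted p = 0.064, 0.054 and 0.085). With library medians set equal WARS1 was at -0.18 (adjusted p = 0.13). The summed lung epithelial markers were also higher with TAOK2 siRNA, at 8158 to 9027 TPM against 6251 to 6489 TPM in controls, mostly keratins; their part in the falls was not tested.

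**Figure D2:**
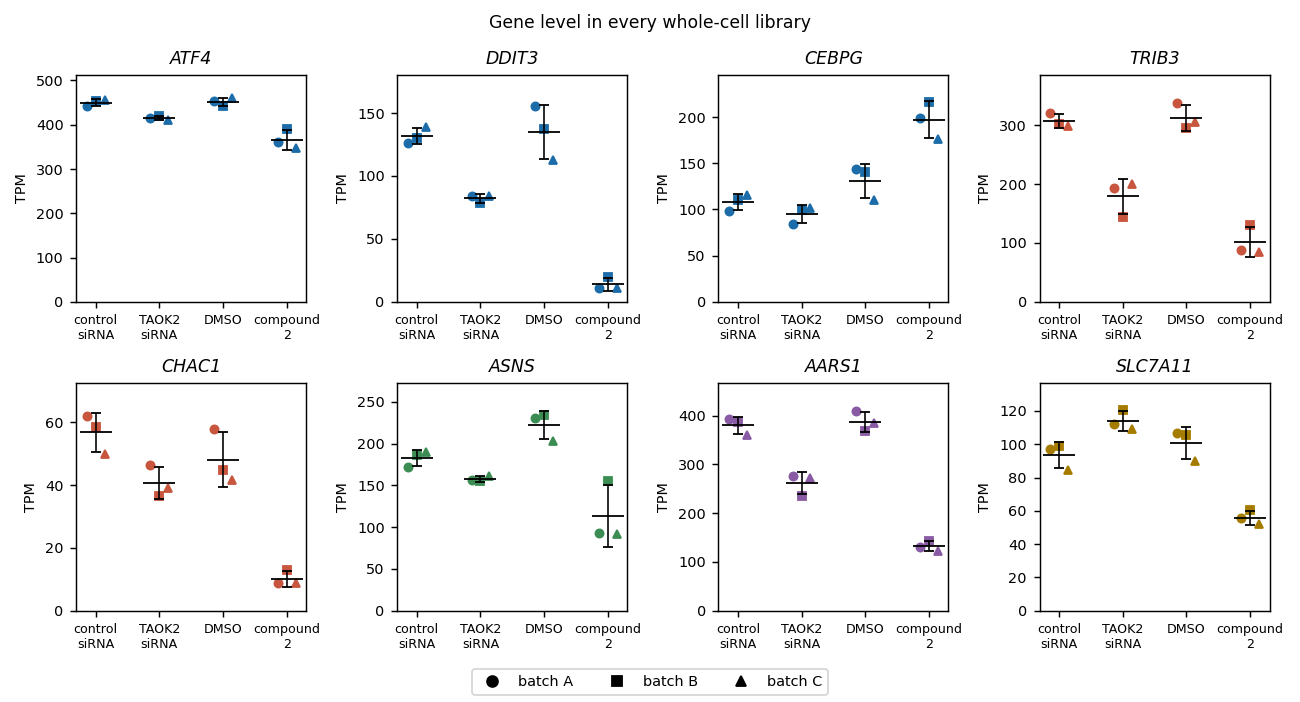
TPM (y axis, from 0) of ATF4, DDIT3, CEBPG, TRIB3, CHAC1, ASNS, AARS1 and SLC7A11 in every whole-cell library of the 4 groups; marker shapes are batches A, B and C, and bars are the mean with SD of 3 libraries. DDIT3 drops from 113 to 156 TPM with DMSO to 10.7 to 20.0 TPM with compound 2, while CEBPG rises from 110 to 143 TPM to 176 to 216 TPM.

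With compound 2, most of the genes fell, while CEBPG rose. Of the 42 members 35 fell and 1 rose, against 51.8% of all genes lower and 12% higher (63.7% in all). The member median was -0.93 and that of all genes -0.31, and member changes ran from -3.24 to 0.60. Setting the median log2 value of the tested genes equal in every library moved the all-gene median to 0.19 and the member median to -0.42, and 25 members were then lower and 7 higher. Of all 13106 genes, 3189 were lower and 5662 higher in that setting. The compound 2 library of batch B was the highest of the 3 for 37 of 42 members and for 54.2% of all genes, and the member median was -0.61 in that batch against -1.07 in A and -1.05 in C. Without it, 40 members passed, among them PPP1R15A, SHMT2, TARS1 and VLDLR, and the member median was -1.06. Of all 13106 genes 8606 then passed, with a median of -0.35.

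DDIT3 had the largest fall: it was at 156, 137 and 113 TPM with DMSO and at 10.7, 20.0 and 10.9 TPM with compound 2. The change was -3.24 (SE 0.19, adjusted p = 6.3e-08), and the batch B library was the highest of its group. CEBPB was at 150, 145 and 137 TPM against 71.1, 89.2 and 66.5 TPM (-0.93, SE 0.10), and NUPR1 at 26.6, 27.4 and 21.0 TPM against 7.03, 7.20 and 5.42 TPM (-1.78, SE 0.27). Neither pair of groups overlapped. CEBPG (ENSG00000153879, chromosome 19, 33373330 to 33382686, plus strand), the main heterodimer partner of ATF4 at amino acid genes, went the other way, at 143, 140 and 110 TPM with DMSO and 199, 216 and 176 TPM with compound 2. It was the only member that rose on the TPM scale, by 0.59 (SE 0.11, adjusted p = 0.00065). ATF4 was at 453, 441 and 460 TPM against 360, 391 and 347 TPM, a fall by 0.30 (SE 0.05, adjusted p = 0.00019) that became a rise of 0.21 (adjusted p = 0.0053) when library medians were set equal. ATF4 mRNA therefore changed by about as much as the median gene, and its direction depends on the scaling. ATF3 was at 67.9, 58.2 and 28.0 TPM against 80.3, 119 and 41.1 TPM, and the difference of 0.60 did not pass (adjusted p = 0.19). It was 1.11 with medians set equal (adjusted p = 0.015) and 1.01 without the compound 2 library of batch C (adjusted p = 0.020). ATF5 did not pass.

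Of the stress effectors 6 of 8 fell with compound 2. GTPBP2 (ENSG00000172432, chromosome 6, 43605316 to 43629162, minus strand) was at 51.4, 48.2 and 45.8 TPM with DMSO and 4.13, 5.53 and 4.81 TPM with compound 2. The change was -3.09 (SE 0.10), with the smallest adjusted p of the 42 in this comparison (8.4e-10). CHAC1 was at 58.0, 44.8 and 41.5 TPM against 8.64, 13.0 and 8.74 TPM (-2.15, SE 0.16), and TRIB3 at 338, 295 and 306 TPM against 88.7, 130 and 84.6 TPM (-1.65, SE 0.16). In both, the batch B library with compound 2 was the highest of its group and still far below DMSO. STC2 was at 137, 124 and 138 TPM against 64.7, 88.9 and 58.5 TPM (-0.93), and DDIT4 changed by -0.96. SESN2 changed by -0.45 (adjusted p = 0.037), a call lost without any of 4 single libraries, and which turned to 0.06 with medians set equal. PPP1R15A and VLDLR did not pass.

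Among the synthesis enzymes, 9 of 10 fell with compound 2 and SHMT2 did not pass. PCK2 was at 49.6, 46.1 and 50.0 TPM with DMSO and 9.04, 10.4 and 10.3 TPM with compound 2 (-2.19, SE 0.09, adjusted p = 1.9e-09). CBS was at 50.3, 53.8 and 50.2 TPM against 11.5, 14.7 and 13.7 TPM (-1.88, SE 0.09, adjusted p = 7.8e-09). Both groups of both genes were tight and far apart. PSPH was at 98.6, 99.1 and 100 TPM against 37.7, 47.8 and 41.0 TPM (-1.22), and PSAT1 and ALDH1L2 changed by -1.41 and -1.48. ASNS was at 230, 234 and 204 TPM against 92.6, 156 and 91.7 TPM, a fall by 1.01 (SE 0.16, adjusted p = 0.00016) that was smallest in batch B. PHGDH and MTHFD2, of serine synthesis and mitochondrial folate metabolism, fell by 0.71 and 0.60, and neither passed with medians set equal (adjusted p = 0.19 and 0.49). CTH, the second transsulfuration enzyme, fell by 0.41, which turned to 0.10 with medians set equal.

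Of the synthetases 10 of 11 fell with compound 2, and of the transporters all 6. AARS1 was at 410, 368 and 384 TPM with DMSO and 131, 142 and 122 TPM with compound 2 (-1.55, SE 0.08, adjusted p = 7.7e-09). MARS1 was at 320, 302 and 290 TPM against 119, 132 and 109 TPM (-1.34), and CARS1, for cysteine, at 52.9, 41.4 and 49.0 TPM against 12.8, 15.4 and 11.5 TPM (-1.78). In all 3, every library with the compound lay far below every DMSO library. NARS1 fell much less, from 239, 203 and 227 TPM to 166, 184 and 171 TPM (-0.36, SE 0.07), and with medians set equal NARS1, GARS1 and EPRS1 turned positive, at 0.15, 0.08 and 0.03, while WARS1 (-0.55) lost the call (-0.04, adjusted p = 0.69). IARS1 was at 255, 237 and 238 TPM against 149, 152 and 148 TPM (-0.70). TARS1, for threonine, did not pass (-0.22, adjusted p = 0.12). Among the transporters, SLC7A5 (LAT1, the large neutral amino acid exchanger) was at 1245, 1118 and 1248 TPM against 544, 487 and 551 TPM (-1.19, SE 0.08). SLC1A4, for alanine, serine and cysteine, was at 36.5, 35.0 and 36.9 TPM against 9.85, 14.1 and 10.1 TPM (-1.60), SLC1A5 at 503, 447 and 467 TPM against 263, 290 and 226 TPM (-0.86), and SLC7A11 at 107, 106 and 89.7 TPM against 55.4, 60.4 and 51.9 TPM (-0.84). SLC38A2, the starvation-induced neutral amino acid transporter, changed by -1.09. SLC3A2 fell by 0.27, which became 0.24 with medians set equal.

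The effects of the siRNA and of compound 2 were compared directly as a difference of differences. Limma called it above 0 (lower with the compound than with the siRNA) in 27 members and below 0 in 1, at an adjusted p under 0.05. Of all genes, 42.4% and 12.3% were called (54.7% in all). With medians set equal the split became 16 and 6, against 2766 and 4674 of all 13106 genes. The member median of this difference was 0.71 and that of all genes 0.30. GTPBP2 differed most, by 3.22 (SE 0.14, adjusted p = 4.6e-08), followed by DDIT3 at 2.57 (SE 0.27, adjusted p = 1.5e-05). SLC7A11, which rose with the siRNA and fell with the compound, differed by 1.12, and CEBPG was the 1 member called below 0, at -0.77 (SE 0.16, adjusted p = 0.0016). For NARS1 the difference was -0.07 (adjusted p = 0.55), with changes of -0.43 and -0.36 side by side. CEBPB changed by -0.60 and -0.93, and this difference of 0.33 did not pass (adjusted p = 0.067). The 2 control groups were not alike throughout: with control siRNA against DMSO, 3 members were lower and 0 higher (2.11% and 4.32% of all genes, 6.43% in all), namely GTPBP2 (-0.44), ATF5 (-0.39) and SLC3A2 (-0.32), and each lost the call without some single library. At an unadjusted limma p under 0.05 there were 10 of 42 members and 2872 of all 13106 genes, which are similar shares. In every batch 22 members were lower, as were 20.3% of all genes. The member median was -0.13 and that of all genes 0.008.

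In the fractionation experiment TAOK2 siRNA was again set against control siRNA, and nearly all members were lower with it in every RNA fraction. In total RNA 38 of 42 members were lower in both batches, in nuclear RNA 37 and in cytoplasmic RNA 36, against 33%, 45.8% and 37.3% of all genes tested. The member medians were -0.60, -0.47 and -0.72, and those of all genes -0.01, -0.05 and -0.06. Without a batch term, limma called 0 members in each fraction (0%, 0.0145% and 0% of all 13751 genes), with 23, 17 and 20 at an unadjusted p under 0.05. Of all 13751 genes, 917, 1328 and 933 were under that unadjusted p. With the labelled batch as a block, 12 members were called lower in total RNA (2.47% of all genes called, 0.807% lower), 13 lower and 1 higher in nuclear RNA (5.9%, 3.13% lower) and 20 lower in cytoplasmic RNA (2.94%, 1.45% lower). Adjusted p-values in the next sentences are from that fit with the batch block, where each group has 2 libraries.

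**Figure D3:**
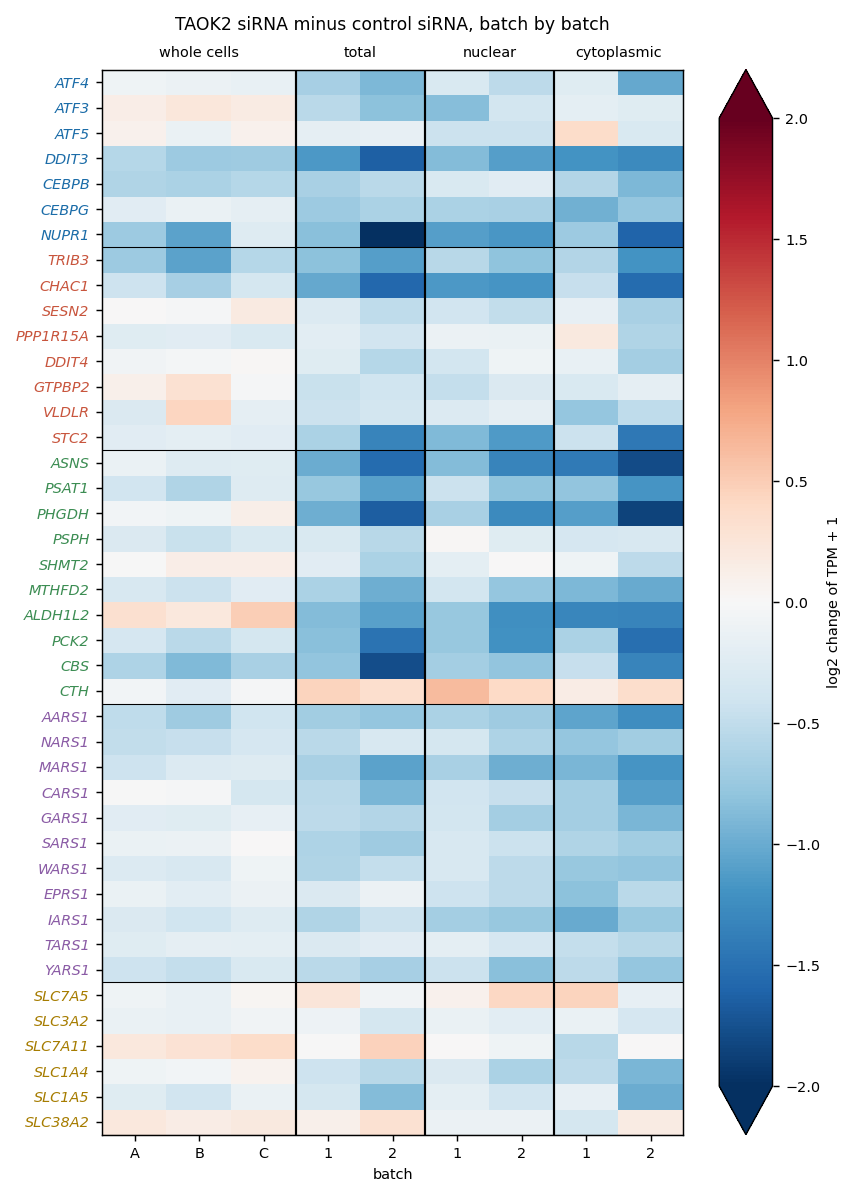
Log2 change with TAOK2 siRNA of each member (rows of cells, grouped by role) within each batch: whole cells A, B and C, then total, nuclear and cytoplasmic RNA of batches 1 and 2, coloured from -2 to 2 on the log2(TPM + 1) scale. Most cells are below 0 in all 9 columns, with NUPR1 in total RNA of batch 2 the deepest at -2.42, and CTH is above 0 in its 6 fractionation columns.

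DDIT3, CEBPG and TRIB3 were each called lower in all 3 fractions. In total RNA DDIT3 was at 57.8 and 86.5 TPM with control siRNA and 25.6 and 27.3 TPM with TAOK2 siRNA (-1.39, adjusted p = 0.00375 with the batch block). In nuclear RNA it was at 46.9 and 63.2 TPM against 25.2 and 29 TPM, and in cytoplasmic RNA at 52.4 and 69.9 TPM against 22.3 and 28.2 TPM. The groups did not overlap in any fraction, and the nuclear and cytoplasmic changes were -0.98 and -1.24. In total RNA ATF4 was at 451 and 379 TPM with control siRNA and 285 and 203 TPM with TAOK2 siRNA, in nuclear RNA at 141 and 162 TPM against 115 and 112 TPM, and in cytoplasmic RNA at 490 and 453 TPM against 415 and 222 TPM. Every ATF4 library with TAOK2 siRNA was below its controls, but ATF4 was not called in any fraction. CEBPG was lower in total RNA, at 114 and 110 TPM against 69.0 and 70.4 TPM (-0.68, adjusted p = 0.021), with changes of -0.63 in nuclear and -0.86 in cytoplasmic RNA. TRIB3, at 110 and 80.8 TPM against 62.0 and 37.2 TPM, fell by 0.96 (adjusted p = 0.0191). CHAC1 was at 13.2 and 7.85 TPM against 6.01 and 1.98 TPM and was not called (-1.30, adjusted p = 0.066). ATF3 was at 13.9 and 13.5 TPM against 9.27 and 7.21 TPM and was also not called (adjusted p = 0.073).

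The synthesis enzymes had the deepest falls in this experiment, with a median of -0.95 in total RNA and 5 of 10 called lower in each fraction. In total RNA ASNS was at 319 and 379 TPM with control siRNA and 159 and 130 TPM with TAOK2 siRNA (-1.27, adjusted p = 0.00989). In nuclear RNA ASNS was at 380 and 465 TPM against 207 and 185 TPM, and in cytoplasmic RNA at 172 and 214 TPM against 64.3 and 61.3 TPM (-1.60, adjusted p = 0.003). Both libraries lay far below both controls in every fraction; in whole cells the ASNS difference was -0.21. PHGDH was at 277 and 296 TPM against 141 and 94.0 TPM in total RNA (-1.31, adjusted p = 0.0242), PSAT1 at 232 and 250 TPM against 137 and 118 TPM (-0.92), and MTHFD2 at 379 and 434 TPM against 243 and 219 TPM (-0.81). PHGDH and PSAT1 are the first steps of serine synthesis; PSPH, the last, was not called in total RNA (-0.43, adjusted p = 0.090). In whole cells the PHGDH difference was -0.01, and the experiments were not tested against each other. ALDH1L2 was at 22.1 and 18.4 TPM against 11.6 and 8.11 TPM (-0.98, adjusted p = 0.023). CBS and PCK2, called in whole cells, were at 18.8 and 13.8 TPM against 10.5 and 3.31 TPM and at 41.0 and 34.5 TPM against 22.5 and 11.7 TPM. Neither was called in any fraction; in total RNA the differences were -1.28 for CBS (adjusted p = 0.065) and -1.16 for PCK2 (adjusted p = 0.051). CTH was the 1 member called higher, in nuclear RNA, at 32.5 and 47.1 TPM against 50.9 and 62.7 TPM (0.52, adjusted p = 0.0386).

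Synthetases were called lower most often in cytoplasmic RNA, where 9 of 11 passed, against 4 in total and 5 in nuclear RNA. AARS1 was at 309 and 214 TPM against 191 and 125 TPM in total RNA and at 118 and 118 TPM against 56.1 and 49.0 TPM in cytoplasmic RNA (-1.15, adjusted p = 0.0086). MARS1 was called in all 3 fractions, with changes of -0.86, -0.81 and -1.04, and IARS1 in nuclear (-0.72) and cytoplasmic RNA (-0.88). All 11 synthetases were lower in both batches of every fraction. Of the transporters, SLC1A4 was called in cytoplasmic RNA alone (-0.72, adjusted p = 0.045); SLC7A11 and SLC7A5 did not keep one direction across batches in total or cytoplasmic RNA. A direct test of the siRNA effect on the nuclear against cytoplasmic difference called 0 members with limma (0% of all genes). At an unadjusted p under 0.05 there were 0 members and 184 of all 13751 genes. The member median was 0.23 (all genes 0.02), and a difference between fractions was not shown. Summed fibroblast markers were higher with the siRNA in total RNA, at 48.2 to 51.1 TPM against 21.1 to 22.5 TPM, carried by LUM, while COL1A2, COL3A1 and PDGFRB averaged at most 0.21 TPM and COL1A1 and DCN 1.74 to 3.84 TPM. Summed epithelial markers were higher as well, at 4405 to 5663 TPM against 3324 to 4009 TPM; the part of either list in the falls was not tested.

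Levels of several members differed between the 2 experiments even in control cells, although both used the same line; the tables were normalized separately and these levels were not tested. ATF4 was close, at 415 TPM in total RNA of the fractionation experiment and 450 TPM in whole cells. SLC7A5 was at 116 against 1003 TPM, CEBPB at 19.8 against 159 TPM and PPP1R15A at 17.8 against 165 TPM. CTH was at 50.6 against 4.47 TPM, PHGDH at 287 against 108 TPM and ASNS at 349 against 183 TPM. Synthesis enzymes lay on both sides, with CBS at 16.3 against 48.8 TPM and SHMT2 at 106 against 245 TPM, and so did transporters, with SLC38A2 at 539 against 423 TPM. These genes were picked after their values were seen.

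Nuclear and cytoplasmic RNA were also compared in control cells of the fractionation experiment. Of the 42, 8 were higher and 6 lower in nuclear RNA (29.8% and 18.9% of all genes, 48.7% in all), with a median of 0.01 against 0.21 for all genes. In both batches 18 members were higher and 18 lower, as were 53.2% and 38.6% of all genes. These values compare shares within each fraction and not amounts per cell. With medians set equal the split was 3 and 11 (2779 and 4095 of all 13751 genes), and with protein-coding transcripts alone 3 and 8 (1901 and 3212 of 11860 genes). With batch as a block it was 12 and 14 (40.5% and 27.7% of all genes, 68.2% in all).

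**Figure D4:**
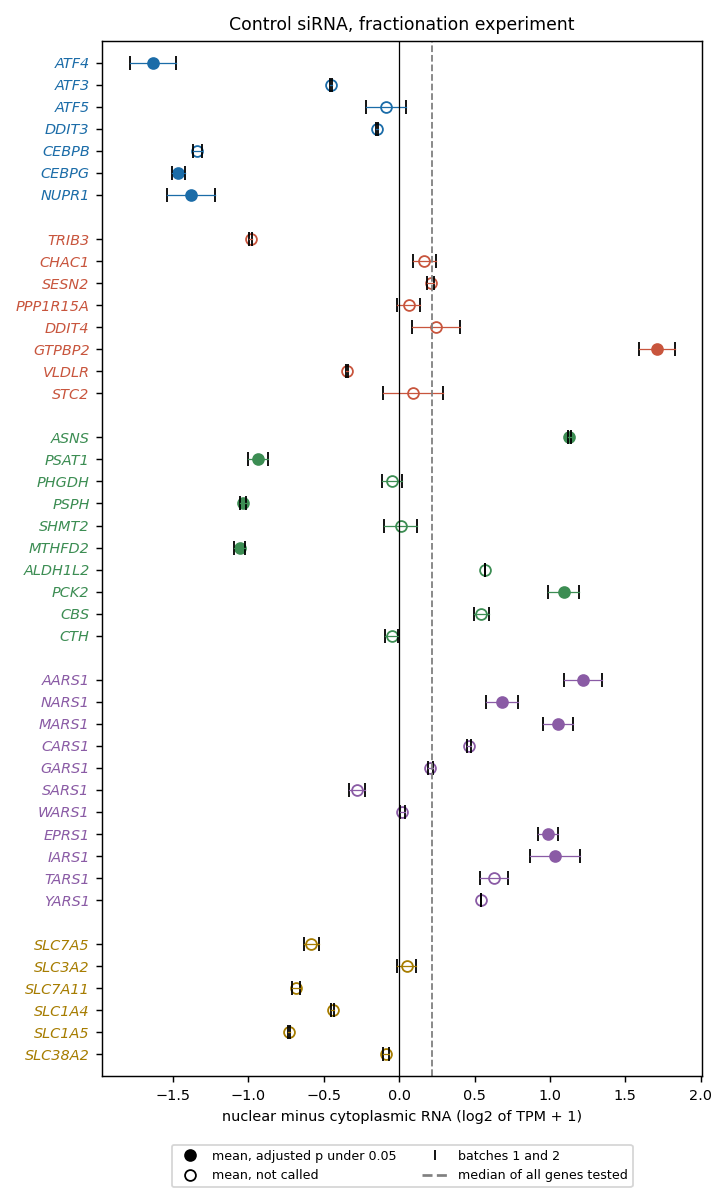
Nuclear minus cytoplasmic log2 difference (x axis, log2(TPM + 1) scale) of each member with control siRNA; the large point is the mean and the small points are batches 1 and 2. Of the 11 synthetases 10 have means above 0, and all 7 transcription factors have means below it; means run from 1.71 for GTPBP2 to -1.63 for ATF4; these signs are those without setting library medians equal.

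Of the 7 transcription factors, 3 were lower in nuclear RNA and none of the others passed, DDIT3 being at -0.15. ATF4 was at 141 and 162 TPM in nuclear and 490 and 453 TPM in cytoplasmic RNA, a difference of -1.63 (SE 0.28, adjusted p = 0.0017). CEBPG differed by -1.46 (SE 0.16, adjusted p = 0.00014) and NUPR1 by -1.38 (adjusted p = 0.046, lost without any 1 of the 4 libraries). Among the enzymes, PSAT1 (-0.94), PSPH (-1.04) and MTHFD2 (-1.06) were lower in nuclear RNA. In the other direction, GTPBP2 was at 54.0 and 49.1 TPM in nuclear and 14.5 and 15.6 TPM in cytoplasmic RNA (1.71, SE 0.14, adjusted p = 4.6e-05). AARS1 (1.22), ASNS (1.13), PCK2 (1.09), MARS1 (1.05), IARS1 (1.03), EPRS1 (0.99) and NARS1 (0.68) were also higher in nuclear RNA. With medians set equal, PCK2, NARS1, MARS1, EPRS1 and IARS1 no longer passed (adjusted p = 0.11, 0.21, 0.052, 0.080 and 0.062). PCK2 also lost the call without any 1 of the 4 libraries, and EPRS1, MARS1 and NARS1 without 2 of them each. For PCK2, MARS1, IARS1, NARS1 and GTPBP2 this did not pass with protein-coding transcripts alone (0.23, 0.16, 0.61, 0.42 and 0.91). In that setting the median of all genes moved as well, from 0.21 to -0.18. The loss of these calls therefore does not by itself show which transcripts carried the nuclear excess.

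A non-productive share was also followed: TPM of retained-intron, nonsense-mediated decay and processed transcripts of a gene, as a percent of the TPM of all its annotated transcripts. The test used the log2 ratio of non-productive to protein-coding TPM, for genes averaging at least 5 TPM. It took in 30 members in whole cells and 31 in the fractionation experiment. In nuclear against cytoplasmic RNA 18 of 31 members had a higher share and 0 a lower one (53.6% and 1.75% of all genes, 55.4% in all), with a median of 2.18 against 1.53. GARS1 was at 31.0% and 36.5% in nuclear and 1.04% and 1.81% in cytoplasmic RNA (log2 ratio difference 4.93), and IARS1 at 27.1% and 25.7% against 1.57% and 0.392% (4.82). CBS was at 30.1% and 40.2% against 2.56% and 0.814% (3.30). With TAOK2 siRNA in whole cells limma called 0 of 30 members (0.296% of all genes), with 2 at an unadjusted p under 0.05 (976 of all 8777 genes).

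Compound 2 changed the non-productive share of 16 of 30 members, 9 upwards and 7 downwards, while 27% of all genes rose and 15.3% fell (42.3% in all). SLC38A2 went from 20.1%, 22.2% and 17.1% with DMSO to 47.0%, 42.8% and 46.9% with compound 2 (log2 ratio change 1.76, SE 0.16, adjusted p = 2.4e-06). SLC1A4 went from 5.63%, 5.75% and 4.82% to 23.7%, 32.8% and 23.4% (2.5, SE 0.19, adjusted p = 6.5e-07). In both transporters the groups were far apart, and mean protein-coding TPM fell, from 316 to 105 and from 34.2 to 8.25, while non-productive TPM went from 78.5 to 86.0 and from 1.95 to 3.11. GTPBP2 went from 33.9%, 29% and 28.3% to 46.3%, 45.4% and 40.0% (0.88), with both kinds of transcript lower. NUPR1 (1.70), ALDH1L2 (1.32), EPRS1 (1.08), GARS1 (0.91) and STC2 (0.55, adjusted p = 0.056 without the compound 2 library of batch A) also rose. PHGDH rose by 1.11, but the value was -0.78 when processed transcripts were left out, so its direction rests on that annotation class.

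In the other direction, CBS went from 23.0%, 21.4% and 18.4% to 5.15%, 5.45% and 3.90% (-1.65, SE 0.19, adjusted p = 2.4e-05) and SHMT2 from 30.6%, 25.5% and 22.2% to 12.9%, 15.2% and 10.3% (-1.26). SHMT2 was the synthesis enzyme whose summed level did not pass, and its mean protein-coding TPM was 196 with DMSO and 207 with the compound. The synthetases AARS1 (-0.92), IARS1 (-1.0) and NARS1 (-0.98, adjusted p = 0.051 with batch as a block), the exchanger SLC7A11 (-0.94) and ATF3 (-0.88, adjusted p = 0.10 without the DMSO library of batch C) also fell. Synthetases therefore appear on both sides, EPRS1 and GARS1 upwards and 3 others downwards.

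**Figure D5:**
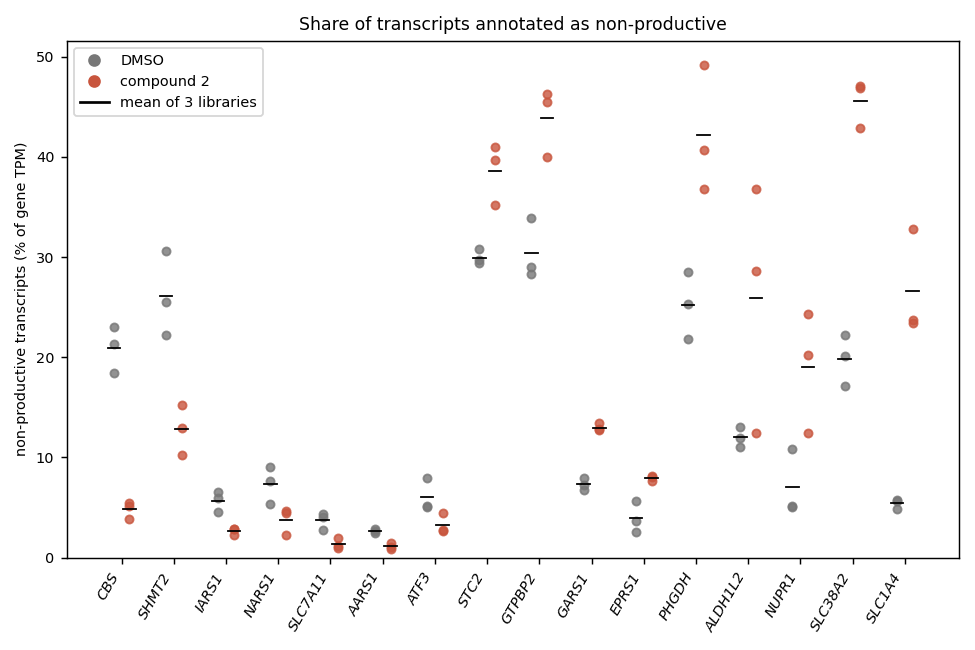
Percent of TPM in retained-intron, nonsense-mediated decay and processed transcripts (y axis) in each library with DMSO and with compound 2, for the 16 members whose share changed. SLC38A2 and SLC1A4 show the clearest gains, to 42.8% to 47.0% and 23.4% to 32.8%, and CBS the clearest loss, to 3.90% to 5.45%; the sign for PHGDH depends on the processed-transcript class.

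Single transcripts of ASNS also shifted with compound 2. ASNS-202 was at 88.1, 84.3 and 85.1 TPM with DMSO and 8.80, 16.4 and 9.49 TPM with the compound, whereas ASNS-201 was at 29.6, 29.9 and 24.8 TPM against 53.1, 89.0 and 53.7 TPM. Both are protein-coding and both pairs of groups were far apart, in opposite directions, within a gene whose sum fell by 1.01. These are estimates that kallisto divides among overlapping transcripts, and they were not tested.

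Genes around the 42 were taken from 5 lists of the same pathways, and their counts stand beside 14.4% of all genes lower with the siRNA (median -0.05) and 51.8% lower with compound 2 (median -0.31). Of 20 genes for eIF2 kinases and eIF2 machinery, 6 fell and 0 rose with TAOK2 siRNA (median -0.11), with the eIF2B subunit EIF2B5 at -0.42, the kinase inhibitor DNAJC3 at -0.31 and EIF2S1, the phosphorylated eIF2 subunit, at -0.27. With compound 2, 13 fell and 1 rose (median -0.35), among them the GCN2 partner GCN1 (-0.96), the mitochondrial stress messenger DELE1 (-0.81) and EIF2S2 (-0.70), and DNAJC3 rose by 0.27. Of 25 tested other ATF4-linked genes, 8 fell and 0 rose with the siRNA (median -0.26), with the proline enzyme PYCR1 at -0.94 (SE 0.07, adjusted p = 1.4e-05), the mitochondrial protease LONP1 at -0.35 and the aspartate aminotransferase GOT1 at -0.39. PYCR1 thus fell more than any of the 42. With compound 2, 16 fell and 1, ERO1A, rose by 0.18 (median -0.69), with the glycine transporter SLC6A9 at -2.14, the death receptor TNFRSF10B at -1.97 and SLC33A1 at -1.76.

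Cytosolic synthetases outside the list and their scaffold proteins gave 4 falls of 12 with the siRNA (KARS1 -0.31, FARSA -0.43 and EEF1E1 -0.25 among them, median -0.18) and 7 with compound 2 (AIMP2 -1.12, FARSA -0.90 and RARS1 -0.71, median -0.32). Of 17 mitochondrial synthetases, which are not classical ATF4 targets, 8 fell with the siRNA (EARS2 -0.44, TARS2 -0.40 and IARS2 -0.20, median -0.15) and 13 with compound 2 (PARS2 -2.16, TARS2 -1.65 and EARS2 -0.89, median -0.49). In both of these lists no gene rose. Of 14 tested other one-carbon and amino acid enzymes, 3 fell with the siRNA (MTR at -0.33 and GOT2 at -0.19 among them, median -0.18), and with compound 2, 7 fell, among them MTFMT at -1.12, and OAT and GCSH rose (median -0.16). The compound 2 medians of -0.35, -0.32 and -0.16 are near or above that of all genes, so no shift of those 3 lists relative to all genes is shown. With medians set equal EIF2S1, LONP1, EEF1E1, IARS2 and GOT2 lost their siRNA call (adjusted p = 0.060 to 0.13) and RARS1 its compound 2 call (adjusted p = 0.13). GOT1 lost its siRNA call without the filter (adjusted p = 0.062), and DNAJC3 and MTR without 1 library (adjusted p up to 0.068 and 0.064). In total RNA of the fractionation experiment, the medians of these 5 lists were -0.02, -0.38, -0.09, 0.09 and 0.05 in the order given, so of the surrounding lists that of other ATF4-linked genes was the one well below 0, beside -0.60 for the 42 members.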

How the data were processed

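TPM values per transcript were computed by the authors with kallisto on GRCh38.p14, per the submitters' processing notes; version and annotation release: not given in the sources used here. Each of the 2 deposited tables lists 188753 transcripts, of which 169797 (90.0%) matched GENCODE 29 and were summed to 35579 genes. Gene coordinates are those of GENCODE 29 (GRCh38); promoter sequences are RefSeq, GRCh38.p14. Since TPM keeps no read totals, no counting intervals are given, and library number limits precision.

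Groups were compared with limma 3.58.1 (R 4.3.3) on log2(TPM + 1), which understates changes of low genes, over genes averaging 1 TPM or more, in 1 group-means model per table with trend and robust moderation and Benjamini-Hochberg adjustment; SE is the moderated one. The non-productive test added 0.5 TPM to both kinds of transcript. The group-means fit was run on simulated data with independent libraries, for the TAOK2 siRNA effect in whole cells and in total RNA. Fits with the batch block and the non-productive test were not simulated. The members and lists were chosen with earlier results of these data known. Library values are given for ATF4, ATF3, DDIT3, TRIB3, CHAC1, ASNS and the 3 members per subgroup with the smallest adjusted p in each whole-cell comparison, and changes for up to 3 genes of each surrounding list, some of which are not reported here; ASNS transcripts, and other members' library values, were picked after their values were seen.

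Batches come from the labels: residuals of same-batch libraries correlated at -0.302 to 0.639 in whole cells and 0.531 to 0.837 in the fractionation experiment, where 2 libraries per group mirror each other. Fits with the batch as a block, without a filter, with other pseudocounts (0.1 and 5 TPM), with equal library medians, with protein-coding transcripts alone, with only the compared groups and without each library were also run.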

Additional observations from a re-analysis of the deposited data

Results flagged for a closer look

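For 3 members the TAOK2 siRNA moved whole cells and total RNA of the fractionation experiment in opposite directions in every batch; this difference was not tested, since the tables were normalized separately. ATF3 differed by 0.17 on the log2 scale in whole cells and by -0.68 in total RNA. ALDH1L2 differed by 0.34 in whole cells and by -0.98 in total RNA. CTH, the exception among the enzymes, differed by -0.11 in whole cells, where it was at 3.66 to 4.83 TPM, and by 0.39 in total RNA, where it was at 43.5 to 73.4 TPM.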

How the results depend on the processing

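The count of members called with TAOK2 siRNA in whole cells (14) became 24 when only the 6 compared libraries were fitted and 18 with batch as a replicate block, and ranged from 9 to 12 when single libraries were left out (9 without the control library of batch A or the TAOK2 siRNA library of batch B). The calls among all 13106 genes moved as well, from 2905 to 4247 with only these libraries and 3660 with the block. They were 1678 to 2270 without single libraries. Control siRNA against DMSO gave 1 member without a filter, 6 with only these groups, and 0 to 3 without single libraries. Among all genes it gave 416 of 28871 without a filter, 781 of 13106 with only these groups, and 117 to 825 without single libraries. With the batch block the fractionation counts rose from 0 to 12 in total, 14 in nuclear and 20 in cytoplasmic RNA, and from 14 to 26 for nuclear against cytoplasmic RNA (10 to 12 without single libraries). The cause of these changes was not tested. Leaving a library out of a group of 2 assumes that the remaining one varies like the other groups.

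With library medians set equal, compound 2 changes reversed for ATF4 (0.21), SESN2 (0.059), CTH (0.10), NARS1 (0.15), GARS1 (0.077), EPRS1 (0.028) and SLC3A2 (0.24), and the differences between siRNA and compound for ATF4 (-0.27), WARS1 (-0.15) and IARS1 (-0.078). With TAOK2 siRNA, SLC1A4 reversed to 0.020 in that setting and ranged from -0.097 to 0.024 without single libraries, and SLC7A5 from -0.13 to 0.0083; neither was called. Apart from the changes given beside the results (CHAC1, NUPR1, ALDH1L2 and SLC1A5 with the siRNA, and NARS1's non-productive share), the batch block gave calls in whole cells to SLC7A5 in control siRNA against DMSO and to the non-productive share of ASNS with compound 2, and changed no other call there. The non-productive share of PHGDH reversed to -0.78 without processed transcripts. A fit with only the compared groups was not run for the difference between siRNA and compound. For compound 2, 35 of 36 calls were kept without each single library.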

Other observations

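Transcripts with near-identical copies elsewhere in the genome add doubt to 2 members. SLC7A5P1, a copy of SLC7A5, was at 5.39, 4.34 and 3.97 TPM with DMSO and at 83.1, 66.0 and 58.1 TPM with compound 2, while SLC7A5 itself went from 1204 ± 74.1 to 527 ± 35.3 TPM (SD, n = 3). The groups of the copy did not overlap, and it stayed well below the parent gene in every library. CBSL, a copy of CBS, averaged 3.29 TPM with DMSO and 0.553 TPM with compound 2, in the same direction as CBS. How kallisto divided reads between copies and parent genes is not known here.

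SLC3A2 was made up differently in the 2 experiments. Its non-productive share was 3.00%, 3.06% and 3.09% in control whole cells and 73.0% and 56.9% in control total RNA of the fractionation experiment. MTHFD2 had a high share throughout, at 63.3%, 60.7% and 58.0% in control whole cells and 58.9%, 61.3% and 60.2% with compound 2, and its share did not pass with either treatment; between nuclear and cytoplasmic RNA its adjusted p was 0.15, and 0.030 with batch as a block. These values were not tested between experiments.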
